A study of Rattus norvegicus with 6 samples.

Results

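Astrocytes keep the fluid around neurons stable. They pass water, take up glutamate and bicarbonate, buffer potassium, and are joined to each other by gap junctions that share ions and metabolites across the network. The genes described here are 10 that carry out these tasks or mark the unreactive state of the cell: the water channel gene Aqp4, the glutamate transporter genes Slc1a2 and Slc1a3, the sodium bicarbonate cotransporter gene Slc4a4, the connexin genes Gja1 and Gjb6, the enzyme genes Glul, Aldoc and Aldh1l1, and the neurotensin receptor gene Ntsr2. They were chosen by name, with earlier results of these data known. Probes were assigned to them through the RefSeq transcript each probe was designed on, which gave 16 probes for the 10 genes, out of 30367 probes and 15443 named genes on the array. There were 5 genes with 1 probe, 4 with 2 probes and 1, Aqp4, with 3.

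Total RNA of rat brain was measured on 6 single-channel arrays, 1 per sample, from 3 rats after a sham operation and 3 with intracerebral hemorrhage (ICH), in which blood escapes into the brain. Sham tissue is labelled only as brain and ICH tissue as peripheral brain tissue, and the series title speaks of injured tissue around the hematoma, the mass of clotted blood. Every sample carries day 1 as its age. How the bleed was made, the strain of the rats and the region dissected in each group are not given in the sources used here, so the sham tissue may not be matched in region. The design text calls the second group transfected, which no sample label does. Each array is labelled a biological replicate.

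Between 81.8% and 85.4% of the spots on an array were well above background and 0 were saturated. Correlations over the probes tested were 0.985 to 0.992 among sham arrays, 0.950 to 0.980 among ICH arrays and 0.947 to 0.986 between the groups. All 16 astrocyte probes were well above background on all 6 arrays, with processed signals from 2636 to 61500 against local backgrounds of at most 66.2, so none of them passed the filter through 1 group alone. Where a probe had more than 1 spot on the array, the SD between its spots was at most 0.10 on the log2 scale. Values below are log2 signals relative to the 75th percentile of the array, as deposited, and differences are ICH minus sham ± SE with n = 3 arrays in each group. The number of arrays limits the precision.

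Most of the 10 genes read slightly lower in ICH, none by enough to pass the test. Slc4a4 was 1.89-fold lower by its brighter probe, Aqp4 1.38-fold lower by its brightest, and the others differed by less than 1.5-fold. Taking for each gene its brightest probe, 9 of 10 were lower in ICH and 1, Slc1a2, was higher. The median difference was −0.34, where over all 12965 genes it was −0.02 and 52.7% were lower. By probe, 14 of 16 were lower, with a median of −0.32, against 54.3% of all 24650 probes tested, with a median of −0.04. Relative to the sham mean of each gene, the median over the 10 was 0.05, −0.08 and 0.02 on the 3 sham arrays. It was −0.41, −0.44 and −0.26 on ICH 1 to 3. All 3 ICH arrays thus lay below all 3 sham arrays by this median. Single genes were split on ICH 2, where 6 of the 10 were below their sham mean, against 9 on ICH 1 and 9 on ICH 3. Of all 12965 genes, 7416 were below their sham mean on ICH 2, 5835 on ICH 1 and 7066 on ICH 3. In 7 of the 16 probes every ICH value lay below every sham value, against 16.7% of all probes, and in 0 of the 16 every ICH value lay above, against 10.8%. Those shares of all probes are not matched for brightness. Of the 16 probes, 4 had a mean log2 value above 2 and 10 had one from 0 to 2. Among all probes in these 2 ranges, 89.4% and 63.2% were lower, and 54.9% and 25.8% had every ICH value below every sham value.

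With limma and Benjamini-Hochberg adjustment over 24650 probes, 0 of the 16 probes had an adjusted p under 0.05, and the same held for 0% of all probes tested. The adjusted p-values of the 16 ran from 0.288 to 0.769. At an unadjusted p under 0.05 there were 5 probes, all lower in ICH: Slc4a4 with 1 probe, Aqp4 with 2, Aldoc with 1 and Ntsr2. Of all probes tested, 8.82% were lower at that level and 6.18% higher. Without ICH 2 the number was 8, without ICH 3 it was 6, without sham 2 it was 4, without sham 1 or without ICH 1 it was 3, and without sham 3 it was 2. It was 2 with quantile normalization, 2 in a fit that blocks on slide row, and 1 when arrays were centred on spike-in control probes.

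**Figure D1:**
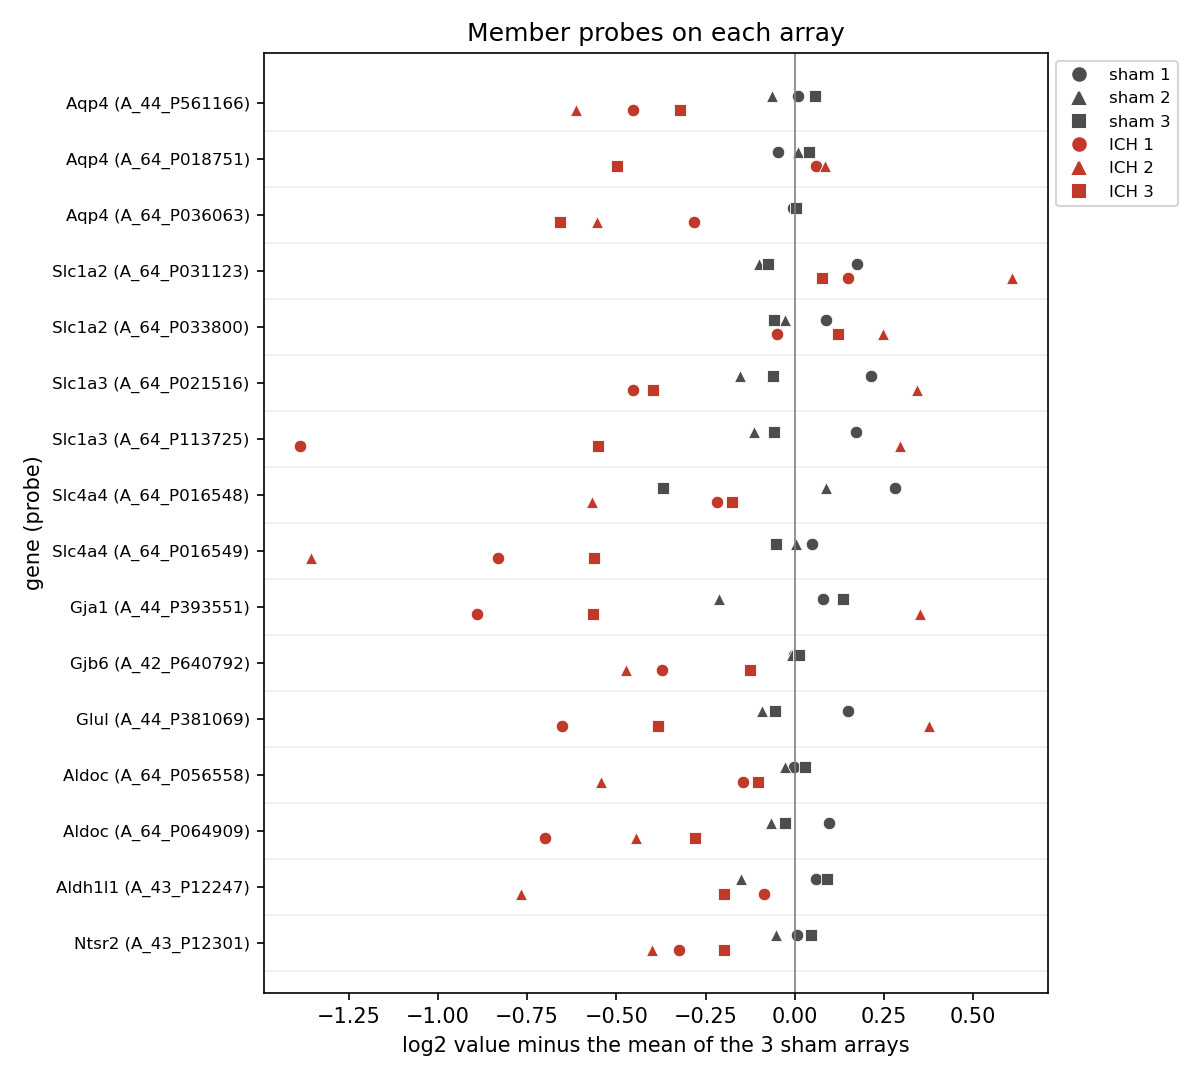
Log2 value of each of the 16 probes on each array, minus the mean of the 3 sham arrays (grey symbols sham, red symbols ICH, symbol shape the replicate number). ICH values of Slc4a4 (A_64_P016549), Gjb6, Ntsr2, both Aldoc probes and 2 Aqp4 probes lie left of all sham values, while ICH 2 lies to the right for Gja1, Glul and both Slc1a3 probes.

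Aqp4 encodes the main water channel of the brain, which sits on astrocyte endfeet around vessels and is studied for its part in brain edema. Its brightest probe, A_44_P561166, read 3.04, 2.96 and 3.08 on sham 1 to 3, against 2.58, 2.41 and 2.71 on ICH 1 to 3. The difference was −0.46 ± 0.13 (adjusted p = 0.288 by limma), or 1.38-fold lower. The groups did not overlap, and the highest ICH array lay 0.26 below the lowest sham array. A second probe, A_64_P036063, read 0.59, 0.60 and 0.59 on the sham arrays, an SD of 0.0048. On the ICH arrays it read 0.31, 0.04 and −0.06 (−0.50 ± 0.14, adjusted p = 0.288 by limma). The third probe, A_64_P018751, read 0.34, 0.40 and 0.43 on sham and 0.45, 0.48 and −0.11 on ICH (−0.12 ± 0.19, adjusted p = 0.769 by limma). On that probe only ICH 3 was low, and the other ICH arrays were slightly above every sham array. Without ICH 3 its difference was 0.072. The probes of this gene therefore disagreed: within each ICH array the third stood above the second by 0.34, 0.64 and 0.16, relative to the sham arrays, whose own values ran from −0.04 to 0.04. All 3 were designed on the same RefSeq transcript.

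Slc4a4, an electrogenic sodium bicarbonate cotransporter that couples astrocyte pH to neuronal activity, had the largest difference of the 10 genes. Its brighter probe, A_64_P016549, read 1.50, 1.45 and 1.40 on sham 1 to 3, against 0.62, 0.10 and 0.89 on ICH 1 to 3, which is −0.92 ± 0.22 (adjusted p = 0.288 by limma), or 1.89-fold lower. The gap between the groups was 0.51, the widest among the 16 probes, and ICH 2 was the lowest array. The other probe, A_64_P016548, read 0.40, 0.20 and −0.25 on sham and −0.10, −0.45 and −0.06 on ICH (−0.32 ± 0.22, adjusted p = 0.491 by limma). There the groups overlapped, since sham 3 was lower than ICH 1 and ICH 3. The difference of this probe was −0.18 without sham 1, −0.20 without ICH 2 and −0.50 without sham 3. Relative to the sham arrays, the second probe stood above the first by 0.61, 0.79 and 0.39 within ICH 1 to 3, and by −0.31 to 0.23 within the sham arrays.

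The glutamate transporters differed from each other. Slc1a2 (GLT-1), which performs most glutamate uptake in the forebrain, was the 1 gene with higher means in ICH, on probes for different RefSeq transcripts. Probe A_64_P031123 read 0.45, 0.17 and 0.20 on sham 1 to 3, against 0.42, 0.88 and 0.35 on ICH 1 to 3 (0.28 ± 0.19, adjusted p = 0.492 by limma, 95% interval −0.18 to 0.74). Probe A_64_P033800 read 0.18, 0.07 and 0.04 against 0.05, 0.34 and 0.22 (0.11 ± 0.14, adjusted p = 0.709 by limma, 95% interval −0.23 to 0.44). On both probes ICH 2 was the highest array and the groups overlapped, and both intervals include 0. Without ICH 2 the differences were 0.11 and 0.036, and without ICH 1 that of A_64_P033800 was 0.18.

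Slc1a3 (GLAST), the transporter of Bergmann glia and of immature astrocytes that is also made in the forebrain, was low on ICH 1 and ICH 3 and high on ICH 2. Its brighter probe, A_64_P113725, read 0.57, 0.28 and 0.34 on sham 1 to 3, against −0.99, 0.69 and −0.15 on ICH 1 to 3 (−0.55 ± 0.41, adjusted p = 0.528 by limma). Its other probe, A_64_P021516, read −0.28, −0.64 and −0.55 against −0.94, −0.15 and −0.89 (−0.17 ± 0.25, adjusted p = 0.747 by limma). Both probes had ICH 2 above every sham array and the other ICH arrays below every sham array, but the drop on ICH 1 was deeper on the brighter probe by 0.93 relative to the sham arrays. Slc1a2 minus Slc1a3, by their brightest probes within an array and relative to the sham mean, was 0.00, 0.01 and −0.02 on sham 1 to 3, against 1.54, 0.31 and 0.63 on ICH 1 to 3. With Slc1a3 probe A_64_P021516 in place of A_64_P113725 the ICH values were 0.60, 0.27 and 0.48. With the other Slc1a2 probe, A_64_P033800, ICH 2 fell inside the sham range, at −0.048 against A_64_P113725 and −0.096 against A_64_P021516. Slc1a2 thus stood higher relative to Slc1a3 on ICH 1 and ICH 3 with every choice of probes, and on ICH 2 only with A_64_P031123. This contrast of the pair was picked after the values were seen and was given no test.

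The connexins behaved differently on 1 array. Gja1 (connexin 43) and Gjb6 (connexin 30) form the gap junction channels between astrocytes, and each was read by 10 spots per array. Gja1 read 1.73, 1.44 and 1.79 on sham 1 to 3, against 0.77, 2.01 and 1.09 on ICH 1 to 3 (−0.37 ± 0.33, adjusted p = 0.591 by limma). The SD between its 10 spots within an array was 0.02 to 0.08. Gjb6 read 1.92, 1.92 and 1.94 on sham, with an SD of 0.0099, and 1.55, 1.45 and 1.80 on ICH (−0.32 ± 0.14, adjusted p = 0.348 by limma). Every ICH array was thus lower for Gjb6, while Gja1 was lower on ICH 1 and ICH 3 only. Gja1 minus Gjb6 was 0.08, −0.20 and 0.12 on the sham arrays and −0.52, 0.83 and −0.44 on the ICH arrays, so the ratio of the connexins moved in opposite directions among ICH arrays.

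Glul encodes glutamine synthetase, which turns the glutamate taken up by astrocytes into glutamine, and its values followed those of Gja1. It read 1.50, 1.26 and 1.30 on sham 1 to 3, against 0.70, 1.73 and 0.97 on ICH 1 to 3 (−0.22 ± 0.28, adjusted p = 0.704 by limma, 95% interval −0.90 to 0.46). Glul minus Gja1 was 0.24, 0.02 and 0.18 on the ICH arrays, beside 0.07, 0.12 and −0.19 on the sham arrays. In all, 4 of the 16 probes, those of Gja1, Glul and Slc1a3, had ICH 1 and ICH 3 below every sham array and ICH 2 above every sham array, where 4.77% of all probes did; this pattern was defined after the values were seen. The size of these differences depended on single arrays. Without ICH 2 they were −0.73 for Gja1, −0.52 for Glul and −0.97 for the brighter Slc1a3 probe, and without ICH 1 they were −0.11, −0.00 and −0.13. The other Slc1a3 probe was at −0.43 without ICH 2, and at −0.027, −0.054 and −0.062 without ICH 1, ICH 3 and sham 1. Glul was at −0.15 without sham 1 and −0.14 without ICH 3.

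Aldoc and Aldh1l1 are metabolic enzymes whose transcripts are used as markers of astrocytes in general, a brain aldolase of glycolysis and a folate dehydrogenase. Aldoc read 3.48, 3.45 and 3.51 on sham 1 to 3, against 3.34, 2.94 and 3.38 on ICH 1 to 3 with probe A_64_P056558 (−0.26 ± 0.16, adjusted p = 0.450 by limma). With probe A_64_P064909 it read 3.68, 3.52 and 3.56 against 2.88, 3.14 and 3.31 (−0.48 ± 0.16, adjusted p = 0.291 by limma). On both probes all ICH values were below all sham values, but the lowest array was ICH 2 on the first and ICH 1 on the second. Without ICH 2 the difference of the first was −0.13. Aldh1l1 read 1.26, 1.05 and 1.29 on sham and 1.11, 0.43 and 1.00 on ICH (−0.35 ± 0.21, adjusted p = 0.450 by limma). The Aldh1l1 groups overlapped, and without ICH 2 the difference was −0.14.

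Ntsr2, a neurotensin receptor found on astrocytes, read 3.22, 3.16 and 3.26 on sham 1 to 3. On ICH 1 to 3 it read 2.89, 2.82 and 3.02 (−0.31 ± 0.12, adjusted p = 0.331 by limma). Its ICH arrays lay closest together of all 16 probes, with an SD of 0.10, and all were below sham. Leaving out any 1 array gave −0.36 to −0.26.

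**Figure D2:**
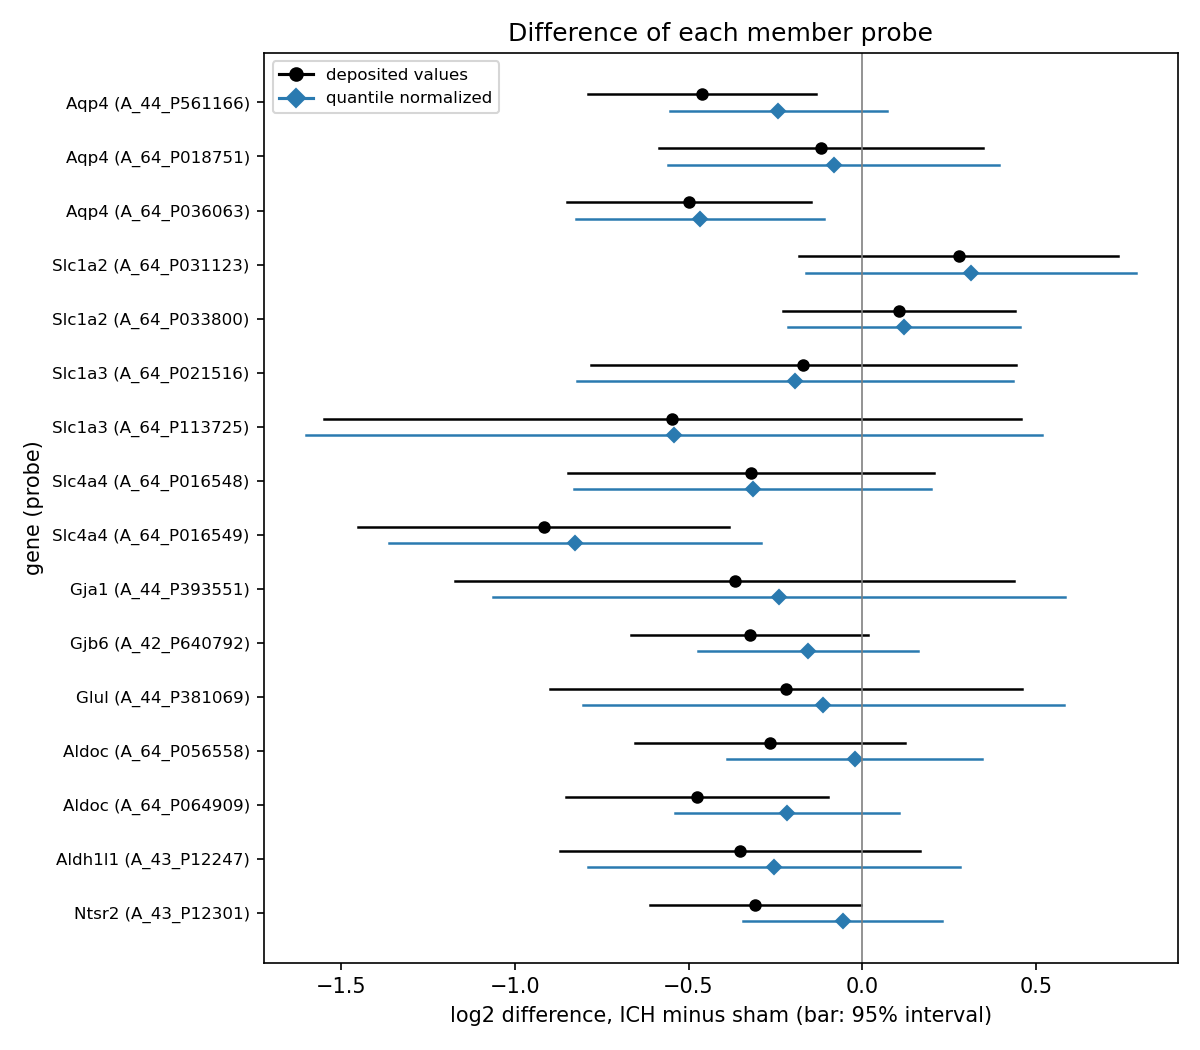
Log2 difference, ICH minus sham, of each probe with its 95% interval from limma, for the deposited values (black circles) and after quantile normalization (blue diamonds). Quantile normalization moves Aldoc, Ntsr2, Gjb6 and the brightest Aqp4 probe toward 0 and leaves Slc4a4 probe A_64_P016549 at −0.83 and Aqp4 probe A_64_P036063 at −0.47, with Aqp4 probe A_64_P018751 at −0.082.

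Brightness moved with these differences. Of the 1537 probes with a mean log2 value above 2, 89.4% were lower in ICH, with a median of −0.22, and 54.9% had all ICH values below all sham values. The 4 astrocyte probes in that range, both of Aldoc, 1 of Aqp4 and that of Ntsr2, had a median of −0.38. Each of them had all ICH values below all sham values. Among 6026 probes with means from 0 to 2 the median was −0.09 and 25.8% had all ICH values below, beside a median of −0.34 for the 10 astrocyte probes there. Of those 10, only Slc4a4 probe A_64_P016549, Aqp4 probe A_64_P036063 and Gjb6 had all ICH values below all sham values. After quantile normalization, which gives every array the same distribution of values, the brightest Aqp4 probe was at −0.24, Ntsr2 at −0.06, the Aldoc probes at −0.02 and −0.22 and Gjb6 at −0.16. Slc4a4 was at −0.83 and −0.32, Aqp4 probe A_64_P036063 at −0.47, Slc1a3 at −0.54 and −0.19, and Slc1a2 at 0.31 and 0.12. The median over the 10 genes was then −0.20, and the 14 lower probes were still lower. What part of the lower values comes with brightness was not tested further.

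**Figure D3:**
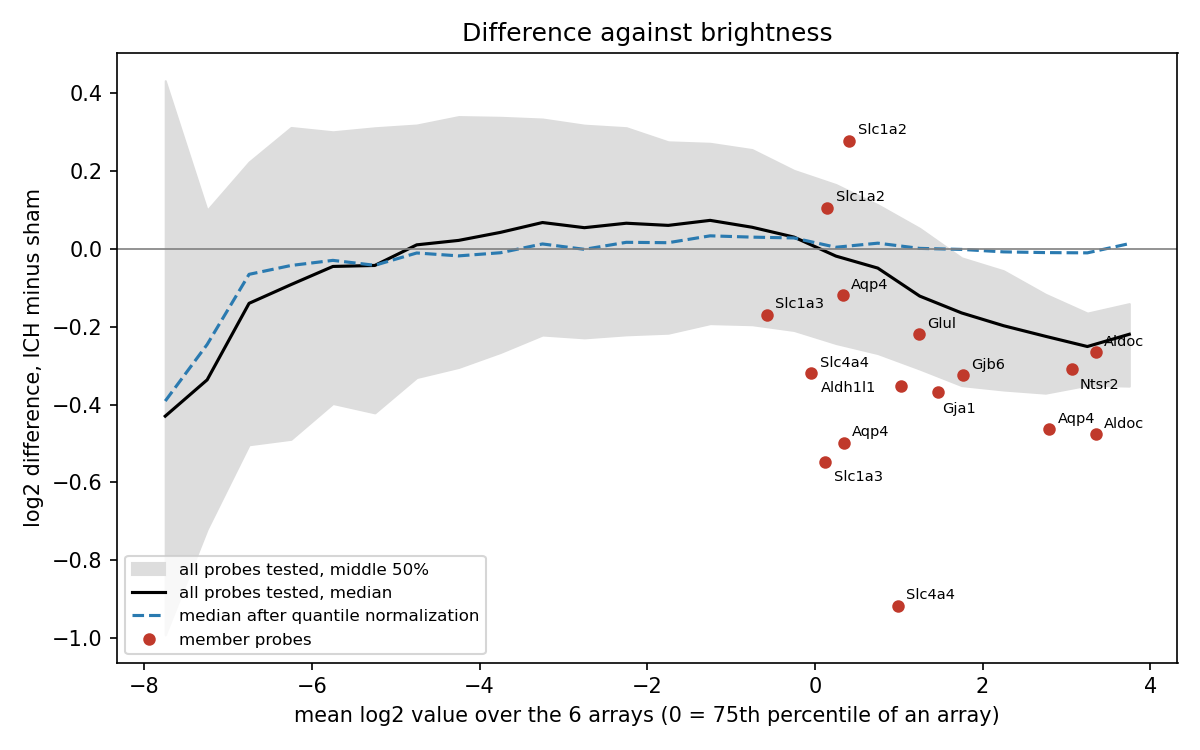
Difference, ICH minus sham, against the mean log2 value of a probe, for the 16 astrocyte probes (red points) and for all probes tested in bins of 0.5 (black line the median, grey band the middle 50%, blue dashed line the median after quantile normalization). The black line drops toward the bright end, where Aldoc, Ntsr2 and the brightest Aqp4 probe lie. Below the grey band lie both Slc4a4 probes, Aqp4 probes A_44_P561166 and A_64_P036063, Aldoc probe A_64_P064909, Slc1a3 probe A_64_P113725, Gja1 and Aldh1l1. Slc1a2 probe A_64_P031123 lies above the band.

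Centring also set the sign. With arrays centred on 7 spike-in control probes in place of the 75th percentile, the median over all probes moved from −0.04 to 0.40, and only 5 of the 16 probes were lower than sham. A change of centring moves all probes of an array alike, so the 14 probes below the median over all probes stay below it by construction. Lower and higher are therefore relative to the typical probe on the array.

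The spread was wider among ICH arrays for 15 of the 16 probes, as it was for 79.8% of all probes. For the 16 probes the median SD was 0.08 in sham and 0.26 in ICH, beside 0.14 and 0.31 over all probes.

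Promoters are shown for Slc4a4, which had the largest difference, and for Gja1 and Slc1a3, which shared the pattern of low ICH 1 and ICH 3 and high ICH 2. The windows are the 250 bases before a transcript start in RefSeq on assembly GRCr8, and all 10 genes had at least 1 window among 33469. Capitals mark matches, on either strand, to the AP-1 motif TGANTCA, the STAT motif TTCNNNGAA or TTGGC, the half-site of the NFI factors that take part in astrocyte differentiation. The Slc4a4 window is chr14:19468283-19468532 on the minus strand, the Gja1 window chr20:36302314-36302563 on the plus strand, and the Slc1a3 window, the first of 3 in the table, chr2:59557809-59558058 on the minus strand.
Slc4a4: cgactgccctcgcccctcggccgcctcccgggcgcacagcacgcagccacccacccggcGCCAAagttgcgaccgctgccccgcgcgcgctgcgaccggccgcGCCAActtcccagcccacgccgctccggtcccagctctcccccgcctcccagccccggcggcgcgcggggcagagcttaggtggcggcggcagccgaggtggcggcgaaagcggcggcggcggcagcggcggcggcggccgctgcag
Gja1: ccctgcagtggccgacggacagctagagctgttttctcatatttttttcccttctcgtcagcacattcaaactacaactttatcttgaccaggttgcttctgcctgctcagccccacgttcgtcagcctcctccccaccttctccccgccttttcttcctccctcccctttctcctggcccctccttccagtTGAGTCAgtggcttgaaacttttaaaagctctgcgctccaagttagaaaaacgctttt
Slc1a3: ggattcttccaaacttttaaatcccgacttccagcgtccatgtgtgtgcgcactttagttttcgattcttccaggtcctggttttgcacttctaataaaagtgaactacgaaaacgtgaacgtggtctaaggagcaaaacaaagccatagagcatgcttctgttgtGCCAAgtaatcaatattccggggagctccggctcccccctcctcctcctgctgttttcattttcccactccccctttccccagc
The AP-1 letters were found in 1 of the 16 windows of the 10 genes, that of Gja1, and in 6.34% of all windows. TTGGC was found in 7 windows, of Gjb6, Glul, Slc1a2, Slc1a3 and Slc4a4, and in 40.3% of all windows, with 2 matches in the Slc4a4 window and 1 in the Slc1a3 window. The STAT letters were found in 1 window, that of Ntsr2, and in 7.67% of all windows. A match describes the letters only.

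Other genes of the same tasks were set beside the 10, each by its brightest probe, and 0 of them passed the test over all probes. Among all 12965 genes, 52.7% were lower by group means, the share to set beside the counts of each list. At an unadjusted p under 0.05, 7.67% were lower and 6.49% higher, and the median was −0.02. The genes that anchor Aqp4 or control cell volume, 6 lower and 2 higher of 8, had a median of −0.20. Differences in that list ran from −0.59 to 0.79, with 1 gene lower and 2 higher at an unadjusted p under 0.05. The brightest were agrin (Agrn), a matrix protein of the endfoot, at −0.59 ± 0.19 (adjusted p = 0.289 by limma), and dystroglycan (Dag1), at −0.15 ± 0.12. The other Agrn probe was at −0.14. The list of potassium and sodium handling, 6 lower and 3 higher of 9, had a median of −0.12, with the sodium pump subunit Atp1b2 at −0.12 ± 0.14.

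Glutamate, glutamine and GABA handling, 10 lower and 4 higher of 14, had a median of −0.27. Glud1, the mitochondrial glutamate dehydrogenase, read −1.16, −1.13 and −0.47 on ICH 1 to 3 relative to the sham mean (−0.92 ± 0.22, adjusted p = 0.288 by limma). Of 9 genes of bicarbonate and acid handling other than Slc4a4, 5 were lower and 4 higher, with a median of −0.15, and the anion exchanger gene Slc4a3 differed by −0.32 ± 0.15 and the carbonic anhydrase gene Car2 by −0.24 ± 0.20. Of 9 other gap junction and pannexin genes, 6 were lower and 3 higher (median −0.11), and 0 had groups that did not overlap. Of all 12965 genes, the groups overlapped in 9371. Panx2 stood at −0.11 ± 0.21 and the junction scaffold Tjp1 at 0.04 ± 0.19. Of 11 genes of lactate and energy supply, 7 were lower and 4 higher (median −0.14), with the lactate dehydrogenase subunit Ldhb at −0.26 ± 0.12 and the glucose transporter Slc2a1 at −0.02 ± 0.16.

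Further identity genes of astrocytes went the way of the 10 by their median, though not all of them did. Of 27 tested, 17 were lower and 10 higher, where 52.7% of all genes were lower. The median was −0.30, and 11 were lower and 1 higher at an unadjusted p under 0.05. All ICH values were below all sham values in 13 of the 27, where this held for 16.2% of all genes. That share is not matched for brightness: among probes with a mean log2 value above 2, this held for 54.9%. All ICH values were above all sham values in 1, Megf10, at 0.86, where this held for 1494 of all 12965 genes. Slc39a12, at 0.81, and Mertk, at 0.37, were also higher by group means. The apolipoprotein genes Apoe, at −0.42 ± 0.15 (adjusted p = 0.302 by limma), and Clu, at −0.30 ± 0.12 (adjusted p = 0.333 by limma), were the brightest. Reactive astrocyte genes went the other way on ICH 1 and ICH 2 by their median. Their median over 24 genes was 0.90, 1.41 and −0.38 on ICH 1 to 3. The filament gene Gfap was at 0.91, 1.05 and −0.45 and the protease inhibitor gene Timp1 at 1.61, 2.21 and −0.34. By group means 5 of the 24 were lower and 19 higher, and in 18 the groups overlapped. On ICH 3, 18 of the 24 were below their sham mean, as were 7066 of all 12965 genes. Yet all ICH values were above all sham values in 4, with ICH 3 at 2.1 for Serpina3n, 1.47 for Ptx3, 0.49 for Cebpd and 0.2 for Lcn2. All ICH values were below all sham values in 2, Cd44 and S1pr3. Of all 12965 genes, 1494 had all ICH values above, 2100 had all below and 9371 overlapped. These counts over all genes are not matched for brightness. The medians of the 10 homeostatic genes on the same arrays, −0.41, −0.44 and −0.26, were low on all 3. On ICH 2, though, 6 of the 10 were below their sham mean, where ICH 1 and ICH 3 each had 9. Among all 12965 genes the counts were 5835, 7416 and 7066 on ICH 1 to 3.

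Markers of other cells and regions also differed between the arrays, and their part in the values of the 10 genes was not tested. In bulk tissue, fewer cells of a type and less RNA per cell cannot be told apart. On ICH 1 to 3 the median over 12 general neuron genes was −0.19, −0.23 and 0.00, over 15 striatal neuron genes −0.81, −1.28 and −0.75, over 12 cortical neuron genes 0.91, 0.98 and 0.79, and over 9 thalamic neuron genes −0.11, −1.46 and 0.47. The sham arrays were spread on these regional lists too, from −0.55 to 0.32 on the striatal list, from −0.35 to 0.29 on the cortical list and from −0.95 to 0.45 on the thalamic list. Oligodendrocyte genes had medians of 0.23, −0.82 and 0.00 on ICH 1 to 3, and genes of their precursors 0.05, 0.03 and −0.20. Microglia genes, at −0.28, −0.35 and −0.33, and genes of endothelium and mural cells, at −0.35, −0.29 and −0.37, were low on all ICH arrays by about as much as the 10 astrocyte genes. Activated myeloid and neutrophil genes were at 2.96, 3.26 and −0.22, genes of choroid plexus, ependyma and meninges at 0.18, −0.45 and 0.03, and red blood cell genes at 0.45, 0.53 and 0.37, with 0.61 on sham 1.

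**Figure D4:**
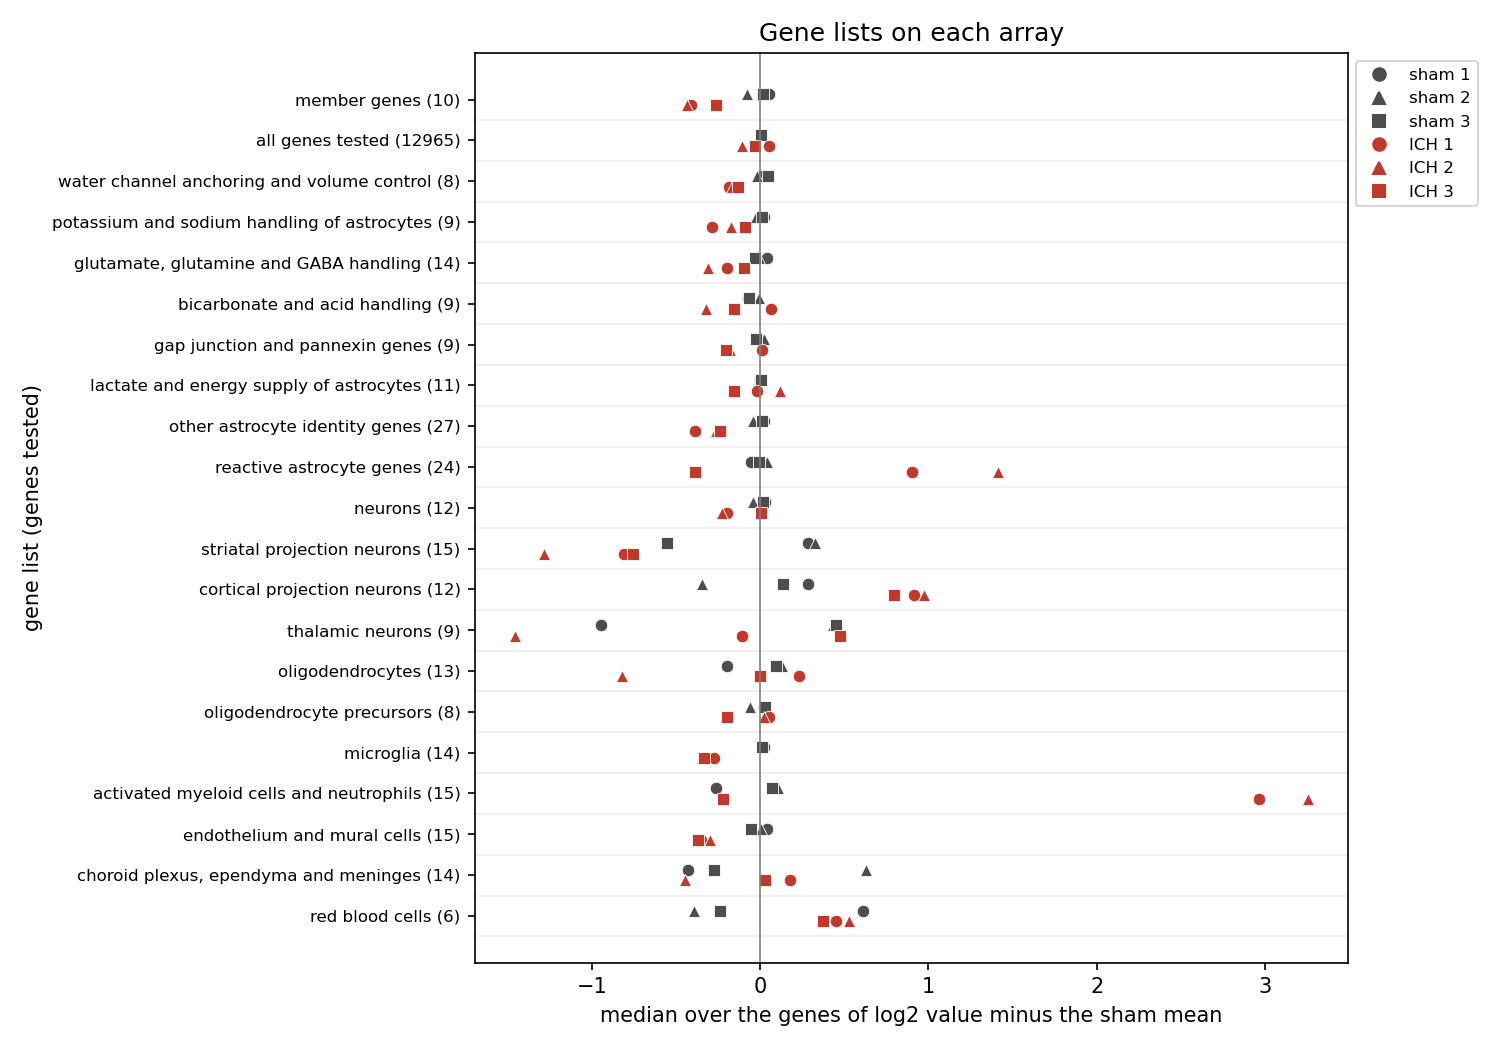
Median over the genes of each list of the log2 value minus the sham mean, by array (grey symbols sham, red symbols ICH, symbol shape the replicate number), with the number of genes tested in brackets. Medians of the 10 homeostatic astrocyte genes lie between −0.44 and −0.26 on the ICH arrays, near those of the microglia and endothelium lists. Medians of the reactive astrocyte and myeloid genes lie high on ICH 1 and ICH 2 and not on ICH 3.

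Likeness of other genes to the mean profile of the 10 was the root mean square difference over the 6 arrays between a gene and that mean, both relative to their sham means. The closest of 12955 genes were Ythdc1 at 0.03, Thrap3 at 0.03, Map7 at 0.04, Hnrnpl at 0.04 and Snx27 at 0.04, where the median gene was at 0.39. Of the 10 themselves, Ntsr2, Gjb6 and Aqp4 were nearest to their mean, at 0.11, 0.13 and 0.15, and Slc4a4, Slc1a2 and Slc1a3 farthest, at 0.48, 0.47 and 0.44.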

How the data were processed

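Per the file headers, the intensity values in the scanner files come from Feature Extraction 11.5.1.1 of Agilent and had their background subtracted and spatial trend removed array by array, with marks of 0 or 1 for each spot (well above background, saturated, not uniform); the submitters' processing notes name version 10.7. The deposited table holds log2 values. Their making is not stated, and from the values they equal the mean over spots of the log2 processed signal, shifted so that the 75th percentile of a column is 0, within 0.001 for 98.5% to 99.3% of probes; centring and direction (higher is brighter) follow from this.

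Probes (18355 with 1 symbol, 12012 with none, 0 with several) were named through RefSeq transcripts of GRCr8, used for names only, since the array design names another build. Probes well above background (at least 0.5 of the spots) on at least 3 of 6 arrays were tested, 24650 of 30367, with limma 3.58.1 in R 4.3.3 (lmFit, eBayes, no covariate, 6.17 degrees of freedom). In a test on simulated data with 24650 probes it recovered 29.8% of 2-fold, 68.4% of 4-fold, 84.6% of 8-fold and 90.4% of 16-fold changes, with 4.91% false calls. The simulated noise was normal, with the same SD in both groups and SDs shuffled over probes. In the data the ICH arrays spread more for 79.8% of all probes, so these rates may not carry over. Tables and figures were made with Python 3.11.15, pandas 2.3.3, numpy 2.4.6 and matplotlib 3.10.9.

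The 10 genes, the 19 companion lists and the tests were chosen with earlier results of these data known. The rule named all probes of the 10 genes, the 2 brightest genes of each list and the 5 genes nearest to the mean profile; genes of lists for other cell types are given as medians only. Some genes that the rule names are not reported here. Nothing in the labels says that the replicate numbers pair the arrays, and they were not used as pairs in the main fit. Deviations from the group means of same-numbered arrays had correlations of −0.19, −0.01 and 0.07. With 3 arrays in each group these values cannot show whether a litter, batch or day was shared. All arrays share 1 slide and 1 scan, with ICH 2 and ICH 3 in another row of the slide than the rest.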

Additional observations from a re-analysis of the deposited data

How the results depend on the processing

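Across 18 alternatives, 0 of the 16 probes passed with limma in any, including the 6 that leave out 1 array, where the lowest adjusted p of the 16 was 0.109 to 0.731. The median over the 10 genes was −0.39 to −0.30 with 1 array left out. It was −0.20 with quantile normalization and 0.10 with spike-in centring, where the median of all probes was 0.40. Apart from spike-in centring, 3 of 261 probe values turned. Spike-in centring moves all probes of an array alike, and 9 of the 16 turned with that shift: Aqp4 probe A_64_P018751 at 0.32, Slc1a3 probe A_64_P021516 at 0.27, Slc4a4 probe A_64_P016548 at 0.12, Gja1 at 0.075, Gjb6 at 0.12, Glul at 0.22, Aldoc probe A_64_P056558 at 0.18, Aldh1l1 at 0.091 and Ntsr2 at 0.14. With the slide row as a block, which leaves ICH 1 against sham, Aqp4 probe A_64_P018751 was at 0.060 and Slc1a2 probe A_64_P033800 at −0.049, and with 1 array left out that Aqp4 probe ranged from −0.22 to 0.072, the latter without ICH 3. The cause was not tested. All probes called numbered 0 with the deposited values, 3699 at an unadjusted p under 0.05, and 44 with spike-in centring, 31 without ICH 3, 8 without ICH 2 or with array quality weights, 4 with an intensity trend and robust variance together or with the filter on all 6 arrays and 3 with normexp background. Of the calls at an unadjusted p under 0.05, 41.2% were higher, against 29.4% with median centring and 96.7% with spike-in centring. With the replicate block the median over the 10 genes was −0.34, 0 of the 16 probes passed, and 3 were lower at an unadjusted p under 0.05.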
